A study of Mus musculus with 25 samples.

Results

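The 8 arrays described here held polysomal RNA of podocytes from knock-in mice, 4 arrays of 2 weeks of age and 4 of 44 weeks, out of 25 arrays in the series, and were chosen by genotype and age as their titles give them. Knock-in mice came from a cross of the Col1a1-eGFPL10a line with the Actn4+/tm1.1Plk line, which carries a mutated form of the gene for the actin crosslinker alpha-actinin-4. In the transgene a collagen 1α1 promoter and enhancer drives ribosomal protein L10a fused to GFP. Tagged ribosomes were pulled from kidney by affinity (translating ribosome affinity purification). An array value is thus meant to read RNA on the ribosomes of cells in which that promoter is active. Genes of tubule, red and plasma cells were read as well, and the source of that RNA was not tested. Wild-type mice with the same tag gave 4 arrays of 2 weeks and 4 of 44 weeks, and 4 further knock-in arrays were of 5 weeks. The mice were C57/129sv, and sex is labelled unknown. How many mutant alleles a knock-in animal carried is not stated in the labels, and neither is whether the 4 arrays of a group read 4 different animals. P-values therefore measure the spread between these samples, which may in part be technical.

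Podocytes wrap the glomerular capillaries with interlocking foot processes, which are held by an actin skeleton and joined by the slit diaphragm. They share a basement membrane with the endothelium, and during maturation its early collagen IV chains (Col4a1, Col4a2) and laminin chains (Lama1, Lamb1) are largely replaced by Col4a3, Col4a4, Col4a5, Lama5 and Lamb2. Mouse nephrons are still being completed around birth, and the tubules go on maturing for weeks, so the span from early postnatal to late adult life covers the end of kidney growth as well as ageing.

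Each array held 45141 probe sets with log2 values from 1.86 to 13.62, and medians that differed by at most 0.17. Each gene was read by 1 probe set, that with the highest mean over all arrays, and 11968 genes stayed after the dimmest 30% (mean under 4.60) were left out. The targeted gene, Actn4, is not among the genes analysed, and no check of the genotype rests on it. Podocyte identity genes were present on all 8 arrays, with list means of 10.2 to 10.6, and so were markers of the surrounding cells. Proximal tubule markers averaged 8.39 to 8.81 at 2 weeks and 8.71 to 9.67 on the 44-week arrays (exact two-sided permutation p = 0.086). The excess of 3′ over 5′ probe signal of beta-actin, a sign of RNA quality, was 1.01 to 1.40 at the younger age and 0.99 to 1.86 at the older (exact permutation p = 0.94). The 18S ribosomal RNA probe averaged 8.60 and 9.95 at the 2 ages (exact permutation p = 0.11), and 8.86 and 11.04 in the wild type (exact permutation p = 0.029, 0.075 adjusted over 34 array measures). Its part in the results was not tested. The sexes were unevenly spread: Y-linked genes were high (mean over 6.47) on 1 of 4 knock-in arrays of 2 weeks (array 20) and on 3 of 4 of 44 weeks, array 34 being the exception. In the wild type they were high on 4 of 4 arrays of 2 weeks and on 1 of 4 of 44 weeks. Age and sex are thus partly confounded, in opposite directions in the 2 genotypes, and for part of the named genes the change is also given between the high-Y and between the low-Y arrays of both ages. On these arrays fewer cells of a type and less RNA per cell cannot be told apart.

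A large share of genes differed between the ages. In limma's test, at a Benjamini-Hochberg adjusted p under 0.05, 3614 of 11968 genes passed (30.2%), of which 1715 (14.3%) were higher at 44 weeks and 1899 (15.9%) were lower. Among them 393 rose (3.28%) and 698 fell (5.83%) by over 2-fold. The median change of all genes was -0.01 on the log2 scale, and the median standard error of a change was 0.18. The values of 4165 genes (34.8%) did not overlap between the 4 arrays of each age. Where the mean of an age lay under 4.60, a change is given on the log2 scale with no fold, since background was not analysed. Every count of list members below is to be read against these shares. The members that passed the filter on dim genes are the only ones counted, for example 43 of 46 podocyte identity genes, 18 of 24 slit diaphragm genes, 20 of 25 basement membrane genes, 26 of 32 interstitial matrix genes and 59 of 76 proliferation genes. Since the filter took the mean over all arrays, some genes, such as Jchain and Cyp4a12a, stayed only through the arrays where they were high.

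Podocyte genes rose, by modest amounts. Of 43 podocyte identity genes tested, 21 rose, none fell and 22 did not pass, with a median change of 0.28, where 14.3% of all genes rose. Of 18 slit diaphragm and polarity genes, 9 rose, 2 fell and 7 did not pass, with a median of 0.42. Nphs1, nephrin, the transmembrane core of the slit diaphragm, read 10.14, 9.90, 9.82 and 9.53 at 2 weeks (arrays 19 to 22) and 11.20, 10.47, 10.95 and 11.31 at 44 weeks (arrays 31 to 34). The 4 older arrays were above all of the younger one, a 2.2-fold rise (log2 change 1.14 ± 0.22 SE, adjusted p = 0.00054). Among its cytoplasmic partners, Cd2ap, the adaptor that links nephrin to actin, changed by 0.55 ± 0.11 (adjusted p = 0.001), Nck1 by 0.59, Nck2 by 0.40, the Src-family kinase gene Fyn by 0.46 and the junction scaffold gene Tjp1 by 0.50, all of which passed. Fyn lost its call without array 33. The size for Cd2ap depended on the probe set, since the other 2 had changes of 1.39 to 1.80.

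Vegfa, the factor by which podocytes maintain the glomerular endothelium, gave one of the tightest rises. It read 8.98, 9.15, 8.98 and 9.22 at 2 weeks and 10.10, 9.99, 9.91 and 9.91 at 44 weeks, so that the spread within an age was far smaller than the step between them (0.90 ± 0.11, adjusted p = 7.6e-06). Nes, which encodes the intermediate filament protein nestin, read 5.67, 5.71, 5.76 and 5.65 at 2 weeks and 7.19, 6.55, 6.70 and 7.23 at 44 weeks. That is a 2.33-fold rise (adjusted p = 0.00022), with arrays 31 and 34 above the other two of 44 weeks. Mertk, a receptor tyrosine kinase, rose 2.28-fold, the transcription factor gene Dach1 1.8-fold, the phospholipase gene Plce1 1.77-fold, Ildr2 1.84-fold, Mapt 1.63-fold, and the cell cycle inhibitor gene Cdkn1c 1.58-fold. Defining genes of the cell changed little or did not pass. Wt1, a transcription factor that podocytes depend on, was 12.07 ± 0.09 (SD, n = 4) at 2 weeks and 12.29 ± 0.052 (n = 4) at 44 weeks and passed by a narrow margin (adjusted p = 0.0498), as did the actin-associated Synpo (0.21, adjusted p = 0.049). Wt1 lost its call without any single array but 22, and Synpo without any but 19 and 34. Podxl, the sialomucin of the foot process surface, went from 12.61 ± 0.058 to 12.62 ± 0.0053 and did not pass (change 0.02, adjusted p = 0.86), while its other, dimmer probe set changed by 1.03. The phosphatase gene Ptpro (0.24, adjusted p = 0.11) and Tcf21 (0.12, adjusted p = 0.47) did not pass either.

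The 2 slit diaphragm list members that fell were polarity genes. Pard6a fell by 0.63 (log2, adjusted p = 0.0082) and Scrib fell by 0.64 (adjusted p = 0.036), a call lost without array 19, 22, 32, 33 or 34. Among members without a passed test, the nephrin relative Kirrel had a change of 0.44 ± 0.27 and the giant cadherin gene Fat1 of -0.25 ± 0.10, which passed without array 34. Beside these genes, the per-array mean of the endothelial list went from 7.09 to 7.28 (exact two-sided permutation p = 0.51), that of the mesangial and smooth muscle list from 8.55 to 7.98 and that of the parietal epithelium list from 8.56 to 7.94 (each exact p = 0.029, adjusted p = 0.075 over 34 array measures). The red cell list, which holds globin and other genes (6 tested), averaged 9.80 and 8.77 (exact permutation p = 0.057). Its globin genes Hba-a1 and Hbb-b2 changed by -2.82 and -2.56 on the log2 scale. The part of these other cells in the podocyte values was not tested. With the tubule marker mean as a covariate 25 podocyte identity genes rose and none fell. With the mean of fibroblast markers in its place, which itself follows age, 7 rose and none fell, and Nphs1 still passed at 1.67 (adjusted p = 0.011).

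**Figure D1:**
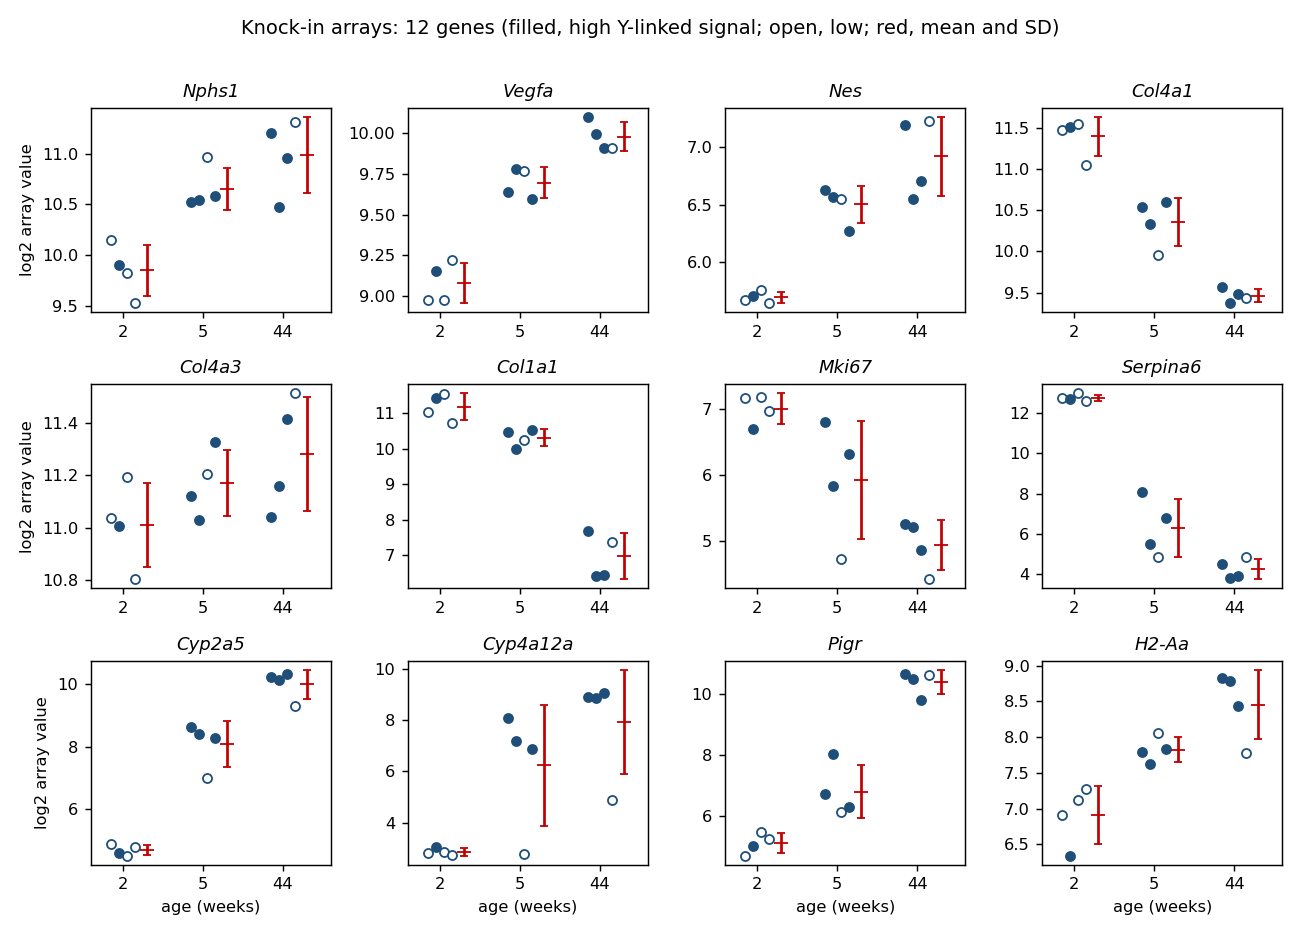
Log2 array values (vertical axes, each panel its own range) of 12 genes on the 12 knock-in arrays by age in weeks; points are arrays, filled where Y-linked signal was high and open where low, and red marks give the mean and SD of 4 arrays. Nphs1, Vegfa and Nes stepped up and Col4a1, Col1a1, Mki67 and Serpina6 stepped down, while Cyp4a12a was high on the filled arrays of 5 and 44 weeks.

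Col4a1, Col4a2, Lamb1 and other basement membrane genes fell, while Col4a3, Col4a5 and Col4a6 did not pass. Of 20 tested genes for collagen IV, laminins and other basement membrane proteins none rose, 12 fell and 8 did not pass (median -0.80). Col4a1 read 11.48, 11.51, 11.55 and 11.05 at 2 weeks and 9.57, 9.38, 9.48 and 9.43 at 44 weeks, a 3.82-fold fall with no overlap (adjusted p = 9.7e-06). Its partner chain Col4a2 went from 11.46, 11.44, 11.54 and 11.27 to 9.42, 9.01, 9.23 and 9.11, which is 4.71-fold (adjusted p = 3.6e-06). The late chain Col4a3 read 11.04, 11.01, 11.19 and 10.80 at 2 weeks and 11.04, 11.16, 11.42 and 11.51 at 44 weeks. These arrays overlapped and the change of 0.27 ± 0.15 did not pass (adjusted p = 0.18). Col4a5 also overlapped (-0.29 ± 0.16, adjusted p = 0.18), and so did Col4a6 (0.57 ± 0.25, adjusted p = 0.094). Col4a4 was lower, by 0.37 ± 0.11 (adjusted p = 0.019), and lost its call when array 34 was left out. With the tubule marker mean as a covariate Col4a3 (0.45, adjusted p = 0.010) and Col4a6 (0.91, adjusted p = 0.0015) passed as higher, and Col4a6 also did with sex as a covariate (0.83, adjusted p = 0.0053).

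Among the laminins 3 chains fell and the mature beta chain did not pass. Lamc1, the gamma chain shared by early and late trimers, read 8.87, 9.06, 8.64 and 8.52 at 2 weeks and 6.81, 6.94, 6.88 and 7.31 at 44 weeks, a 3.45-fold fall (adjusted p = 6.2e-07). Lamb1 fell 2.58-fold (adjusted p = 0.00069) and Lama2, a chain found in mesangial matrix, 2.92-fold (adjusted p = 0.008). Lamb2, the beta chain of the mature membrane, was 8.91 ± 0.081 and 8.96 ± 0.44 (SD, n = 4 each), with a change of 0.046 ± 0.28 (adjusted p = 0.92). Lama1 had a change of 0.22 ± 0.41 (adjusted p = 0.73). Lama3, which is outside the list, changed by 1.15 ± 0.48 (adjusted p = 0.072), and passed without array 34, while its other probe set went the opposite way. Other probe sets of Lamb1 changed by -1.21 to -0.01. The laminin-binding linker Nid1 fell 3.02-fold (adjusted p = 1e-05) and the proteoglycan gene Hspg2 2.51-fold (adjusted p = 0.001). Agrn, agrin, the chief heparan sulphate proteoglycan of the glomerular membrane, fell by only 0.32 (log2, adjusted p = 0.032), and its call was lost without any single array but 22 and 34.

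The 2 largest falls of the list were those of Frem2 and Frem1, which with Fras1 form the Fraser complex that anchors epithelia to their membrane during development. Frem2 read 7.81, 7.66, 7.57 and 6.85 at 2 weeks and 4.45, 4.30, 4.78 and 3.85 at 44 weeks (log2 change -3.13, adjusted p = 7.6e-06). Frem1 fell 5.17-fold and Fras1 2.28-fold. With the fibroblast marker mean as a covariate, 4 of the 20 genes still passed as lower. Lamc1 was among them at -1.57 (adjusted p = 0.0058), whereas Col4a1 (-1.10, adjusted p = 0.095) and Col4a2 (-1.30, adjusted p = 0.058) kept their sign without passing.

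**Figure D2:**
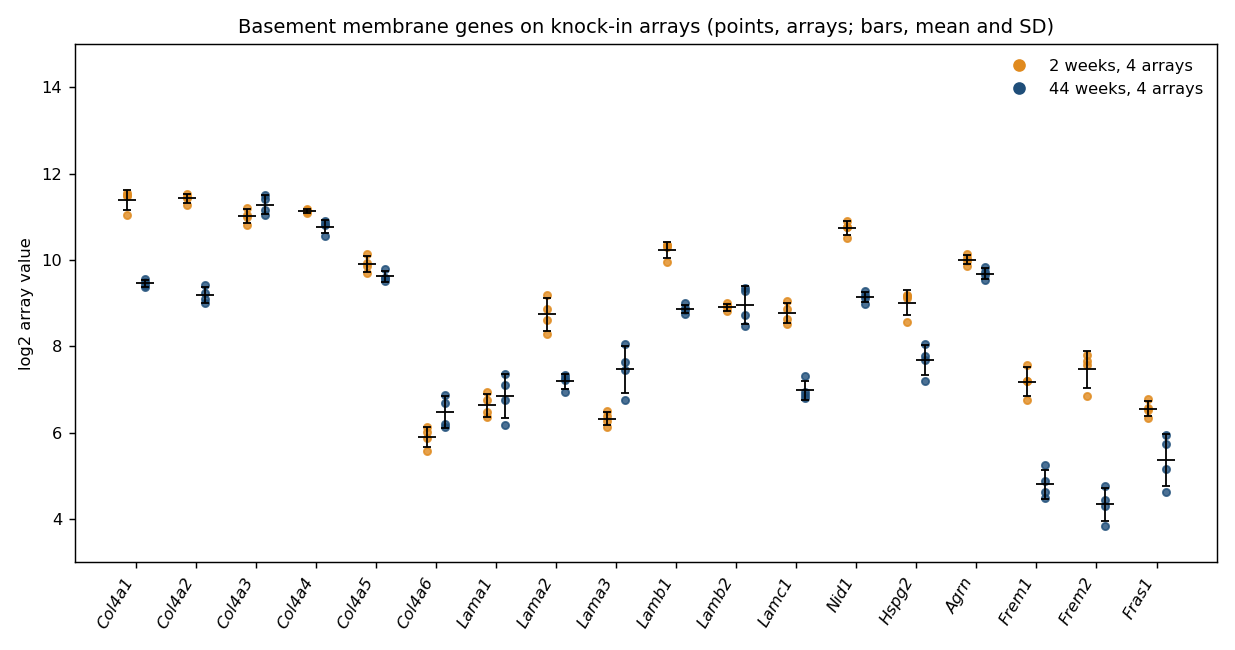
Log2 array values (vertical axis) of 18 basement membrane genes on knock-in arrays, 4 of 2 weeks in orange and 4 of 44 weeks in blue; points are arrays and bars the mean and SD. The 2 groups lie apart for Col4a1, Col4a2, Lamb1, Lamc1, Nid1, Frem1 and Frem2, and overlap for Col4a3, Col4a5, Col4a6, Lama1 and Lamb2.

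Interstitial matrix genes fell most widely among the lists tested. Of 26 tested, none rose, 23 fell and 3 (Col8a1, Loxl2 and Emilin1) did not pass, with a median change of -2.43. Col1a1, whose promoter also drives the ribosome tag, read 11.02, 11.42, 11.55 and 10.72 at 2 weeks, 10.48, 9.99, 10.26 and 10.52 by 5 weeks and 7.69, 6.41, 6.45 and 7.38 at 44 weeks. The net fall was 18.3-fold (-4.20 ± 0.41, adjusted p = 6.2e-07). Most of it came after 5 weeks: the step from 5 to 44 weeks was -3.33 (adjusted p = 4.3e-05) and that from 2 to 5 weeks -0.87 (adjusted p = 0.18). The transgene's own RNA was not read, and its part in the results was not tested. Col3a1, the other major fibrillar chain, took the same course, with steps of -0.75 and -2.95 and a net fall of 13-fold (adjusted p = 2.2e-07). Eln, elastin, instead fell in both steps (-1.98 and -1.74), from 9.92, 10.04, 10.19 and 9.22 at 2 weeks to 6.23, 5.91, 5.82 and 6.54 at 44 weeks (adjusted p = 1.3e-08). Fn1, fibronectin, fell 5.33-fold, the collagen VI chain gene Col6a1 8.72-fold, the elastic fibre genes Mfap4 13.3-fold and Loxl1 5.34-fold, and the matricellular Postn 10.8-fold.

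Markers of the cells that make such matrix fell beside these genes. Of 18 fibroblast markers tested (some of them matrix genes as well) 11 fell and none rose. Their mean per array ran from 7.94 to 8.35 at 2 weeks and from 6.26 to 6.88 at 44 weeks (exact two-sided permutation p = 0.029, the smallest that 4 against 4 arrays allow, and 0.075 adjusted). Of 15 mesangial and smooth muscle markers 8 fell and 3 rose. The pericyte marker Rgs5 fell 3.32-fold (adjusted p = 0.00024), smooth muscle actin Acta2 2.58-fold (adjusted p = 1.4e-05) and the PDGF receptor gene Pdgfrb 2.05-fold (adjusted p = 0.0013). Dpt, a dermal and interstitial fibroblast gene, fell 14.9-fold (adjusted p = 1.1e-05). With the mean of fibroblast markers that are not matrix genes as a covariate, 7 matrix genes still passed as lower and none as higher, and the change of Col1a1 was -2.80 (adjusted p = 0.015).

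Of 56 actin crosslinker and assembly genes 9 rose, 10 fell and 37 did not pass (median -0.02), close to the 14.3% and 15.9% of all genes. Actn1, the nearest relative of the mutated gene, read 10.50, 10.02, 10.08 and 10.94 at 2 weeks and 10.52, 10.90, 11.03 and 10.73 at 44 weeks. These ranges overlapped and the change did not pass (0.41 ± 0.24, adjusted p = 0.21). Genes that rose included Pls3, plastin (0.74, adjusted p = 0.0033), the formin gene Inf2 (0.62, adjusted p = 0.0043) and the cell polarity gene Cdc42 (0.45, adjusted p = 0.0017). The other probe set of Cdc42 went the opposite way, as did 1 of the others of Nck2 and Lims1. Tpm2, a muscle-type tropomyosin, fell 4.02-fold and Evl, an Ena/VASP elongation factor, 4.63-fold. Other probe sets of Evl changed by -1.92 to -0.03. Of 27 integrin and focal adhesion genes 5 rose and 8 fell. Zyx, zyxin, which gathers at stressed actin bundles, read 9.26, 9.48, 9.28 and 9.26 at 2 weeks and 8.06, 7.91, 7.54 and 8.06 at 44 weeks (2.69-fold lower, adjusted p = 2.8e-06). Itga6 fell 3.54-fold and the mesangial integrin gene Itga8 2.15-fold, while Itga3, the integrin of the podocyte base, changed by 0.34 ± 0.25 (adjusted p = 0.3). Lims1, which joins integrins to actin, rose by 1.00 ± 0.17 (adjusted p = 0.00023).

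Cell cycle genes fell together. Of 59 proliferation genes tested 35 fell, 1 (Smc4) rose and 23 did not pass, with a median of -0.64. The promoters of 4 that fell are shown because cell cycle promoters are known for a short element, the CHR (TTTGAA, or here also TTCGAA), placed close to the start and often preceded by CCAAT boxes. The sequences are the 150 bases before the RefSeq start site (build GRCm38.p6), along the gene, with matches to either element on either strand in capitals. Mki67 lies at chr7:135716380-135716529 (minus strand), Top2a at chr11:99024190-99024339 (minus strand), Cdk1 at chr10:69352913-69353062 (minus strand) and Ube2c at chr2:164769779-164769928 (plus strand).
Mki67: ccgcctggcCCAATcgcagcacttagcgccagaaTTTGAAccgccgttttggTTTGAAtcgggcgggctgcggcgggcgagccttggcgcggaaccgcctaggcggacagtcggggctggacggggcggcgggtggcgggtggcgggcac
Top2a: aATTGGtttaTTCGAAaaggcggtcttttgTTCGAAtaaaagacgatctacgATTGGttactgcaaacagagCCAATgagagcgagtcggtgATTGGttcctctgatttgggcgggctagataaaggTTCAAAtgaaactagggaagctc
Cdk1: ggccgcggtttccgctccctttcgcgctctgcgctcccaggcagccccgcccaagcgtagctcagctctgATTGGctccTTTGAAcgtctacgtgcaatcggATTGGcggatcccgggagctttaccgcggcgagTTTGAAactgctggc
Ube2c: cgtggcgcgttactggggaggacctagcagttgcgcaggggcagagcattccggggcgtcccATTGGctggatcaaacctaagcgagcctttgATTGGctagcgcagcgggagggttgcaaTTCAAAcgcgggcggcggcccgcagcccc
In Top2a, Cdk1 and Ube2c a CHR match begins 23, 15 and 29 bases before the start, with CCAAT matches further out, and in Mki67 the nearest begins 98 bases before it. The 4 shown all hold a CHR match in these 150 bases and do not stand for all that fell. Ccnb2, Mcm5, Rrm2 and Uhrf1, among others that fell, hold none there. Over the full table window of 250 bases before to 50 after the start, 17 of the 30 fallen genes with a promoter in the table held a CHR match (56.7%) and 26 a CCAAT match (86.7%). Among all 9654 tested genes with a promoter the shares were 16.3% and 42.4%. Among the proliferation genes that did not fall, 9 of 18 held a CHR match. The matches are a description of letters and not of binding.

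Mki67, the proliferation antigen, read 7.16, 6.69, 7.19 and 6.97 at 2 weeks, 6.80, 5.84, 4.73 and 6.32 on the 5-week arrays and 5.25, 5.22, 4.87 and 4.43 on those of 44 weeks. The arrays of 44 weeks were below all of 2 weeks (4.17-fold, adjusted p = 7.3e-05), and 5 weeks was the age with the widest spread. Top2a, the topoisomerase of dividing cells, went from 7.80, 7.51, 8.19 and 7.73 to 5.30, 6.06, 5.57 and 5.10 (4.92-fold, adjusted p = 8.4e-05). Other, dimmer probe sets of Top2a changed by -0.07 to 0.18, 1 of them the opposite way. Cdk1, the mitotic kinase, fell 4.27-fold with most of its fall after 5 weeks (steps of -0.46 and -1.64). The methylation maintenance gene Uhrf1 fell 3.76-fold with most of it before (-1.31 and -0.60). The cyclin gene Ccna2 fell 3.9-fold, the ubiquitin-conjugating enzyme gene Ube2c 3.28-fold, the nucleotide reductase gene Rrm2 3.3-fold, and the licensing factor gene Mcm5 2.04-fold. The kinase gene Pbk changed by -2.43 on the log2 scale, -1.80 between high-Y and -3.28 between low-Y arrays. At 44 weeks the values of Mki67, Ccna2 and Rrm2 lay near the limit for dim genes, so these folds rest on signals whose background is not known. Which cells held the 2-week signal was not tested. With sex as a covariate 32 proliferation genes passed as lower, and with the fibroblast covariate 7.

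Genes of kidney formation fell as well. Of 31 nephron development genes 12 fell and 1 rose. Cdh6, the cadherin of the nascent proximal tubule, read 6.68, 6.94, 6.64 and 6.82 at 2 weeks and had reached 3.51, 4.07, 4.00 and 3.91 by 5 weeks (net log2 change -2.81, adjusted p = 5e-05). Pax8, an epithelial lineage factor, fell 2.79-fold, the growth factor gene Ptn 4.09-fold and the signalling gene Wnt5a 5.22-fold. The growth factor gene Igf1 fell 4.98-fold (adjusted p = 0.00043; -2.59 between high-Y and -1.24 between low-Y arrays), while the insulin receptor gene Insr rose 1.9-fold (adjusted p = 0.0038) and Igf1r 1.96-fold (adjusted p = 0.021). Other, dimmer probe sets of Insr changed by -0.08 to 0.26, 1 of them the opposite way. Igf1r lost its call when array 19, 21, 32 or 33 was left out. Angpt2, the vessel-destabilizing angiopoietin, fell 4.38-fold (adjusted p = 4.6e-05). Phlda2, an imprinted growth restrainer, fell 3.93-fold and Slc38a4, an imprinted amino acid transporter gene, rose 2.96-fold.

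**Figure D3:**
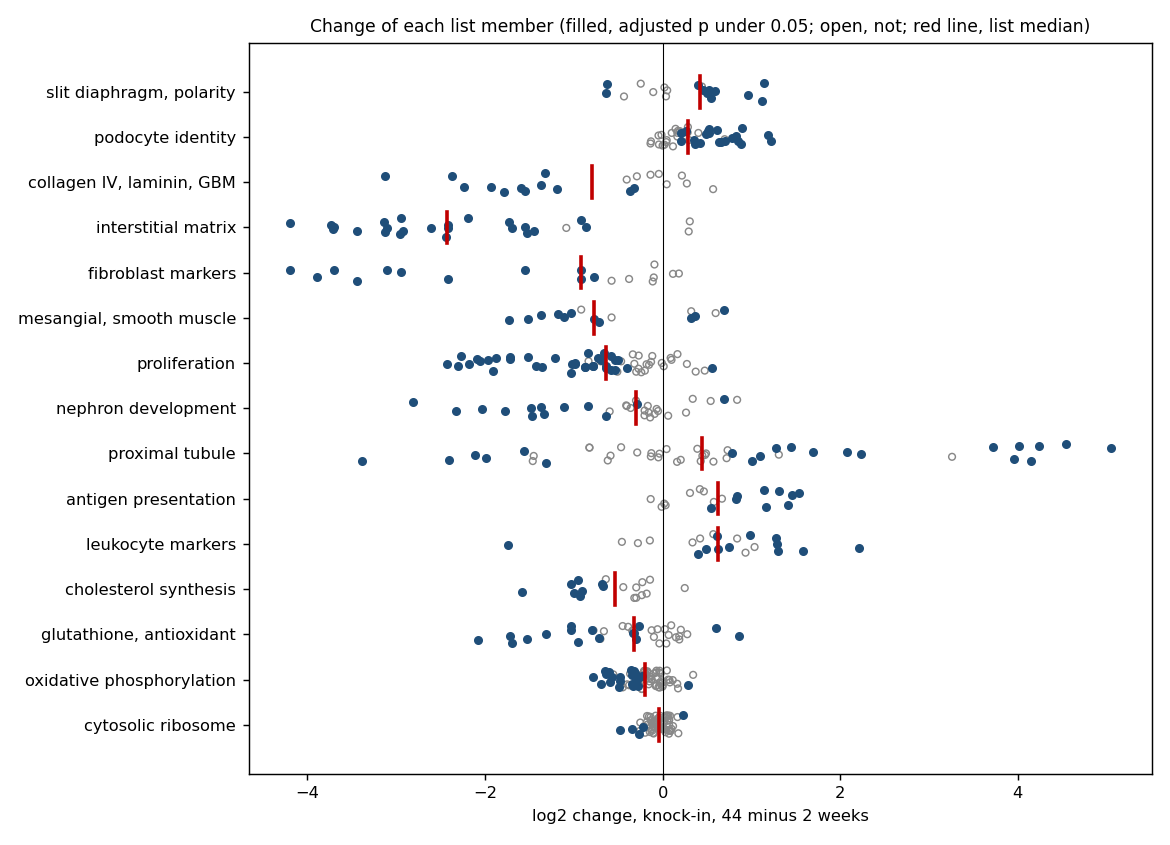
Log2 change from 2 to 44 weeks in the knock-in (horizontal axis) of each tested member of 15 gene lists; filled points passed at an adjusted p under 0.05, open ones did not, and red lines are list medians. Interstitial matrix has the lowest median (-2.43), and proximal tubule genes spread to both sides.

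The largest changes of single genes ran in both directions, and several were in genes outside the lists. Serpina6, corticosteroid-binding globulin, read 12.74, 12.68, 12.96 and 12.58 at 2 weeks, 8.10, 5.51, 4.85 and 6.81 on the 5-week arrays and 4.49, 3.80, 3.90 and 4.84 on those of 44 weeks. This log2 change of -8.48 was the largest of all genes (adjusted p = 1.8e-09), and it ended near the limit set for dim genes. Agt, angiotensinogen, read 10.25, 10.10, 10.56 and 9.71 at 2 weeks and 5.21, 5.67, 5.46 and 5.41 at 44 weeks (26.2-fold, adjusted p = 3.5e-06). Ace, the angiotensin-converting enzyme gene, fell 13.4-fold from 9.77, 9.47, 10.05 and 9.08 to 5.92, 5.63, 6.02 and 5.82 (adjusted p = 3.7e-05). Both had fallen by 5 weeks (changes of -4.00 and -3.21). Of 9 renin-angiotensin genes 5 fell and 2 rose. The arginase gene Arg2 fell 21.6-fold, Serpina10 21.4-fold, the thyroid hormone deiodinase gene Dio1 17.2-fold, the organic anion transporter gene Slc22a27 17.2-fold and the fatty acid elongase gene Elovl2 14.9-fold. A4gnt changed by -3.81 on the log2 scale.

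Array 34, of 44 weeks and low Y-linked signal, had higher values of several of these. Its RNA measures stood apart too: the 3′ excess of beta-actin was 1.86 against 0.99 to 1.06, and the 18S probe 8.32 against 9.85 to 10.97. All low-Y changes rest on this array at 44 weeks, so sex and RNA quality cannot be told apart in them. Arg2 read 6.23, 6.64, 5.83 and 9.02 on arrays 31 to 34, Slc22a27 6.00, 6.89, 5.73 and 8.98 and Dio1 5.16, 4.44, 5.24 and 7.40, with array 34 the highest in each case. All 3 were nevertheless below every array of 2 weeks. The change of Arg2 was -5.11 between high-Y arrays and -2.35 between low-Y arrays, that of Slc22a27 -4.46 and -2.13, that of Dio1 -4.44 and -2.36 and that of Elovl2 -4.12 and -2.35.

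Several cytochrome and transferase genes rose. Cyp2a5, a xenobiotic-oxidizing cytochrome, read 4.91, 4.62, 4.54 and 4.80 at 2 weeks, 8.62, 8.40, 7.01 and 8.26 by 5 weeks and 10.20, 10.13, 10.29 and 9.30 at 44 weeks, a rise of 38.4-fold (5.26 ± 0.43, adjusted p = 4.2e-08). Arrays 25 and 34, the knock-in arrays of low Y-linked signal at the later ages, were the lowest of their age. The pattern was sharper in Cyp4a12a, an androgen-dependent fatty acid hydroxylase, which read 2.80, 3.06, 2.87 and 2.72 at 2 weeks, 8.07, 7.16, 2.79 and 6.89 on the 5-week arrays and 8.88, 8.85, 9.07 and 4.87 on those of 44 weeks. Its rise of 5.05 ± 1.13 (adjusted p = 0.002) was 5.87 between the high-Y arrays of both ages and 2.07 between the low-Y ones. Ugt2b37, a glucuronosyltransferase, gave 5.24 and 0.70, and the transporter gene Slc22a30 5.23 and 1.02. Cyp4b1 (4.76 and 3.27), Cyp2e1 (4.80 and 3.06) and the steroid reductase gene Akr1c14 (4.42 and 3.05) gave values closer to each other. Each such comparison has a single array on one side, which for low Y at 44 weeks is array 34 with its deviant RNA measures. The difference between high-Y and low-Y arrays was not tested. With sex as a covariate all 7 still passed, and Cyp4a12a was 3.55 ± 0.71 (limma adjusted p = 0.00086). All 7 also passed with the tubule marker mean. All but Cyp2a5 are members of that mean, so for them it is no independent check. With the leukocyte and B cell marker mean only Cyp2a5 passed (3.9, adjusted p = 0.00025), and Cyp4a12a was 2.33 (adjusted p = 0.34). Only Cyp2a5 passed with the fibroblast marker mean as well.

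Over the whole list, 15 of 46 proximal tubule genes rose, 6 fell and 25 did not pass (median 0.44). The median was 0.77 between high-Y arrays, -0.17 between low-Y arrays and 0.13 with sex as a covariate. Of 17 genes known to be higher in male kidney, 7 rose and 2 fell; their mean per array was 7.74 to 7.96 on all 4 arrays of 2 weeks, 9.90 to 10.2 on arrays 31 to 33 and 7.85 on array 34. Segment markers did not move as one: Aqp1, the water channel of proximal tubule and thin limb, fell 4.34-fold (adjusted p = 0.00078) and the urate and nicotinate transporter gene Slc22a13 10.4-fold (adjusted p = 7.4e-05), while the vitamin D hydroxylase gene Cyp24a1 rose 13.1-fold (adjusted p = 0.0014). Of 38 markers of the loop, distal tubule and collecting duct 3 rose and 2 fell (median 0.11). Several of these families hold near-identical paralogs (Cyp2a, Cyp4a, Ugt2b, Slc22a, Serpina), so a probe set may read more than the gene it is named for.

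**Figure D4:**
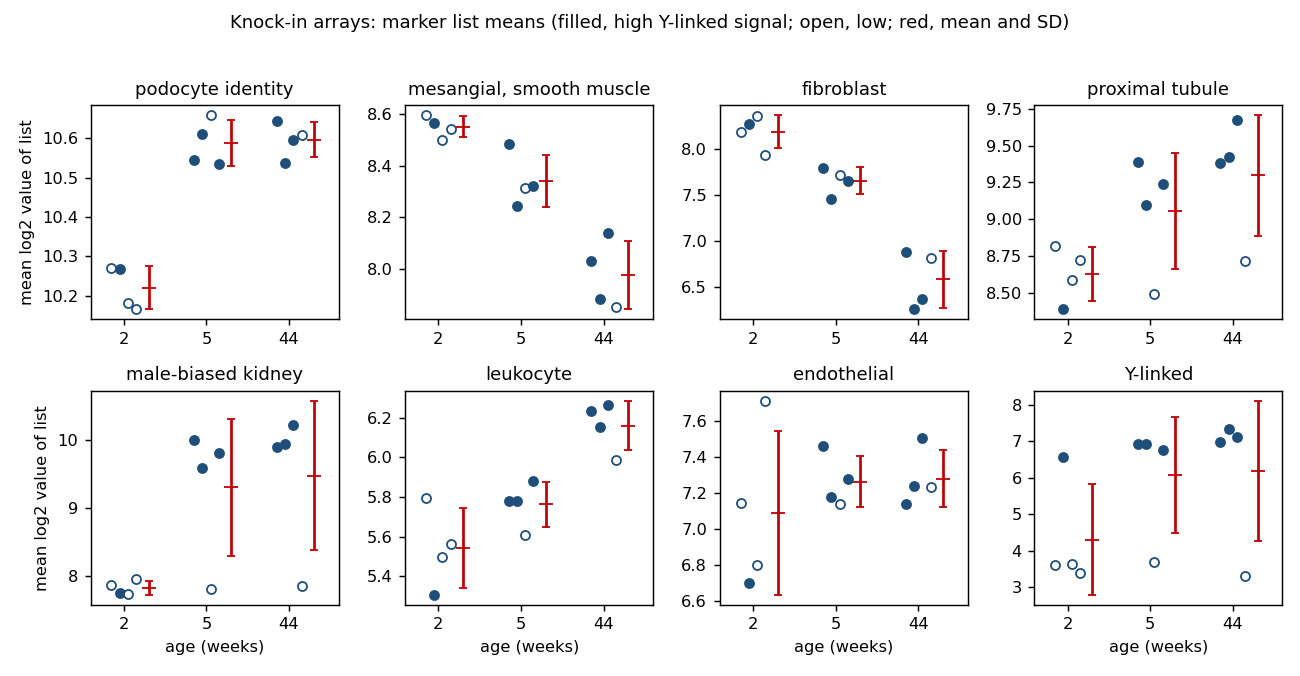
Mean log2 value (vertical axes, each panel its own range) of 8 marker lists on the 12 knock-in arrays by age in weeks; filled points are arrays of high and open points of low Y-linked signal, red marks the mean and SD of 4 arrays. Podocyte identity means are higher on all 4 arrays of 44 weeks than on those of 2 weeks, fibroblast and mesangial means are lower on all 4, and the male-biased list was at 7.82 and 7.85 on the open arrays of 5 and 44 weeks.

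Of 26 immunoglobulin and B cell genes only 4 were bright enough to be tested, of which 2, Pigr and Jchain, rose. Jchain was under 4.60 on every knock-in array of 2 and 5 weeks and stayed in the test through its 44-week values. Its place in this count is thus not independent of its rise. Pigr, the polymeric immunoglobulin receptor that carries antibody across epithelia, read 4.72, 5.04, 5.48 and 5.27 at 2 weeks, 6.74, 8.05, 6.15 and 6.30 by 5 weeks and 10.63, 10.49, 9.80 and 10.62 at 44 weeks (38.3-fold, adjusted p = 2.2e-07). Jchain, which joins the antibodies that Pigr carries and is made by plasma cells, read 3.59, 3.13, 3.18 and 3.13 at 2 weeks and 6.80, 8.19, 6.31 and 6.78 at 44 weeks (log2 change 3.76, adjusted p = 2e-06), with no rise by 5 weeks (0.20, adjusted p = 0.79). The light chain segment Igkj1 took the same course (13-fold, adjusted p = 3.6e-05; step from 2 to 5 weeks -0.28). In all 3 genes no 44-week array reached down to the 2-week range.

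Antigen presentation genes gave 9 rises and no fall among 18 (median 0.62). The class II chain H2-Aa read 6.91, 6.35, 7.12 and 7.28 at 2 weeks and 8.82, 8.79, 8.43 and 7.78 at 44 weeks (2.91-fold, adjusted p = 0.0018), array 34 being the lowest of 44 weeks. Its change was 2.34 between high-Y and 0.67 between low-Y arrays. Its chaperone Cd74 rose 2.75-fold (adjusted p = 0.012), by 2.35 and 0.63 in the same split, and H2-Eb1 2.24-fold (adjusted p = 0.0011). The class I heavy chain genes H2-D1 (2.48-fold) and H2-Q4 (2.65-fold) rose too, but class I genes are near-identical and 1 of the 4 other H2-D1 probe sets went the opposite way. Of 34 interferon response genes 8 rose and 1 fell. Leukocyte markers rose beside them: 11 of 21 rose and 1 fell (median 0.62), and their mean went from a range of 5.31 to 5.80 up to 5.99 to 6.27 (exact two-sided permutation p = 0.029, adjusted p = 0.075). Ptprc, the pan-leukocyte antigen CD45, rose 2.47-fold (adjusted p = 0.015), a call lost without array 20 or 21, and the lysosomal protease gene Ctss 4.63-fold (adjusted p = 0.0015). Csf1r, the macrophage growth factor receptor, fell 3.35-fold (adjusted p = 0.00036). With the leukocyte and B cell marker mean as a covariate, 4 antigen presentation genes rose and H2-Aa was 0.32 (limma adjusted p = 0.63). Pigr was 3.97 (limma adjusted p = 0.00082). Since Pigr is itself a member of that mean, its value cannot be set against that of H2-Aa.

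Among metabolic lists, some members fell and most did not pass. Of 71 genes of oxidative phosphorylation 19 fell, 1 rose and 51 did not pass (median -0.19); 15.9% of all genes fell. Ndufa8, a complex I subunit, fell by 0.70 (log2, adjusted p = 0.0003), Sdhb of complex II by 0.78 (adjusted p = 0.002) and Cox5a of complex IV by 0.48 (adjusted p = 0.00081). Of 18 cholesterol synthesis genes 8 fell and none rose (median -0.54). Dhcr7, the last enzyme of the pathway, read 10.45, 10.72, 10.19 and 10.44 at 2 weeks and 9.58, 9.34, 9.42 and 9.73 at 44 weeks (1.91-fold, adjusted p = 6.2e-05), and the regulator gene Srebf2 fell by 0.68 (adjusted p = 0.00019). Of 35 glutathione and antioxidant genes 14 fell and 2 rose. Gclm, a subunit of the rate-limiting enzyme of glutathione synthesis, fell 4.21-fold (adjusted p = 0.0013), Gss of the next step 3.23-fold (adjusted p = 0.0085) and the quinone reductase gene Nqo1 3.28-fold (adjusted p = 0.0034). Among 66 cytosolic ribosomal protein genes 1 rose and 4 fell (median -0.04), against 15.9% lower among all genes.

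Some of the most certain changes were in genes outside these lists. Creg2, a secreted glycoprotein, read 3.00, 3.18, 3.40 and 3.73 at 2 weeks, 4.15, 3.93, 4.88 and 3.64 on the 5-week arrays and 8.11, 7.56, 8.41 and 8.69 on those of 44 weeks (log2 change 4.86, adjusted p = 2.6e-08), with a step of 4.04 after 5 weeks. Ngb, the oxygen-binding neuroglobin, read 7.09, 7.01, 6.51 and 7.37 at the youngest age, 10.10, 10.10, 10.48 and 9.21 at 5 weeks and 10.75, 10.23, 10.47 and 10.68 at the oldest (11.6-fold, adjusted p = 1.6e-07), with most of its rise done by 5 weeks. The zinc-binding glycoprotein gene Azgp1 rose by 4.56 on the log2 scale (5.37 between high-Y and 2.61 between low-Y arrays). The aldehyde dehydrogenase gene Aldh1a7 rose 20.6-fold and the acyltransferase gene Mogat1 13-fold. Apob, the apolipoprotein of lipoprotein particles, rose by 3.21 on the log2 scale. Anxa1, the anti-inflammatory annexin, rose 2-fold, Parp12 2.23-fold and Serpinb6b 2.48-fold. Nrep had the smallest p among the genes that fell. It read 11.45, 11.64, 11.06 and 11.00 at 2 weeks, 10.01, 10.19, 9.96 and 10.17 by 5 weeks and 7.50, 8.50, 7.60 and 8.29 at 44 weeks (9.94-fold lower, adjusted p = 4.1e-10). The apoptosis effector gene Bak1 fell 2.75-fold, Klhdc3 2.24-fold, Tpgs2 3.63-fold, Cpne2 3.97-fold and the homeobox gene Alx1 14.1-fold. Other probe sets of Tpgs2 changed by only -0.23 to 0.25, 1 of them the opposite way, and those of Klhdc3 by -1.27 to -0.21. The metalloprotease gene Adam12 changed by -4.00 on the log2 scale.

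The net change was made up of 2 steps, which share the 5-week arrays. From 2 to 5 weeks 1638 genes passed (13.7%) and from 5 to 44 weeks 2005 (16.8%). In the first step 5.4% of all genes rose and 8.29% fell, and in the second 8.11% rose and 8.64% fell. Of the 1715 genes that rose, 374 passed from 2 to 5 weeks alone, 548 from 5 to 44 weeks alone, 44 in both and 749 in neither. Their median change was 0.30 in the first step and 0.39 in the second. Of the 1899 that fell, 601 passed in the first step alone, 581 in the second alone, 69 in both and 648 in neither, with medians of -0.42 and -0.38. The lists divided between the steps. Of the 43 podocyte identity genes 16 rose by 5 weeks and 1 rose and 1 fell after it, with medians of 0.32 and 0.02. Cholesterol synthesis genes fell in the same step, 7 of 18 by 5 weeks and 1 after it, and so did glutathione and antioxidant genes, 10 of 35 by 5 weeks and none after it. Of the 26 interstitial matrix genes 8 fell by 5 weeks and 18 after it (medians -0.94 and -1.56), and of the 18 fibroblast markers 1 and 9. Proliferation genes fell in both steps, 11 of 59 in each. Interferon response genes showed 9 rises by 5 weeks but 1 rise and 4 falls after it, with medians of 0.31 and -0.18. Podocyte genes such as Plce1 (0.90 and -0.08) and Dach1 (0.74 and 0.10) and also Serpina6 (-6.42 and -2.06) changed mainly in the first step. Col1a1, Creg2, Jchain and Igkj1 changed mainly in the second.

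The same span was then compared with the wild type, on arrays that the knock-in comparison does not use. In the wild type 3782 genes passed (31.6%), and 2672 genes passed in both genotypes, all in the same direction; they were 73.9% of the knock-in calls and 70.7% of the wild-type ones. In the wild type 13.6% of all genes rose and 18% fell. List counts in the wild type were 20 rises and no fall among the 43 podocyte identity genes (median 0.28), 12 falls among the 20 basement membrane genes (median -0.89), 23 among the 26 interstitial matrix genes (median -3.12) and 37 among the 59 proliferation genes (median -0.74). Markers of the loop, distal tubule and collecting duct gave 19 rises of 38 in the wild type against 3 in the knock-in (medians 0.61 and 0.11), and no member's difference passed. Across the 11968 genes, which are not independent, the 2 sets of changes had a Pearson r of 0.88. The difference between the changes was tested as an interaction, and 0 of 11968 genes (0%) passed in limma's test. The lowest adjusted p was 0.9997, and 359 genes (3%) had an unadjusted p under 0.05. The 95% interval of a difference, unadjusted and for each gene alone, reached a median of 0.52 to either side on the log2 scale. Smaller differences were mostly not detectable, and larger ones did not pass either: 172 genes had a difference over 2-fold. On simulated data with these arrays' spread the test found 56.7% of 2-fold differences and 88.6% of 4-fold ones. The simulation shifted 200 genes and drew every gene independently, without deviant arrays, so these shares may not hold for the real arrays.

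Nphs1 rose by 1.14 in the knock-in and 1.00 in the wild type, a difference of 0.13 with a 95% interval from -0.51 to 0.77. For Vegfa the changes were 0.90 and 0.83 (-0.26 to 0.40), for Col1a1 -4.20 and -4.66 (-0.75 to 1.68) and for Serpina6 -8.48 and -7.86 (-2.27 to 1.03). Wild-type array 1 of 2 weeks stood apart from its group in some genes. Serpina6 read 10.26 there against 12.67 to 12.80, Agt 6.37 against 10.02 to 10.55 and Ace 6.24 against 9.59 to 10.26. Col1a1 lay close to the other arrays (11.90 against 11.37 to 11.77). Without that array no gene's difference passed either, and its part in these single values was not tested. The fall of Col4a1 was -1.93 against -2.58 (-0.077 to 1.38). Pigr rose by 5.26 against 7.40 and Jchain by 3.76 against 5.53; their unadjusted intervals (-3.53 to -0.74 and -2.96 to -0.57) exclude 0, but neither difference passed after adjustment over all genes. The 3 smallest p in each direction belonged to genes that changed more in the wild type. They were Glrx, glutaredoxin (0.50 in the knock-in, -1.26 in the wild type), Rassf1 (-0.18 and -1.17) and Pdgfb (0.16 and -0.77) in one direction, and Shisa7 (-0.24 and 0.46), Igkv1-135 (1.10 and 2.43) and the chemokine gene Ccl28 (0.10 and 2.90) in the other. Gpr85, next in the second direction, changed by -0.58 in the knock-in. Since sex runs opposite ways with age in the 2 genotypes, sex and genotype cannot be fully told apart in this difference; with sex as a covariate no gene passed either.

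**Figure D5:**
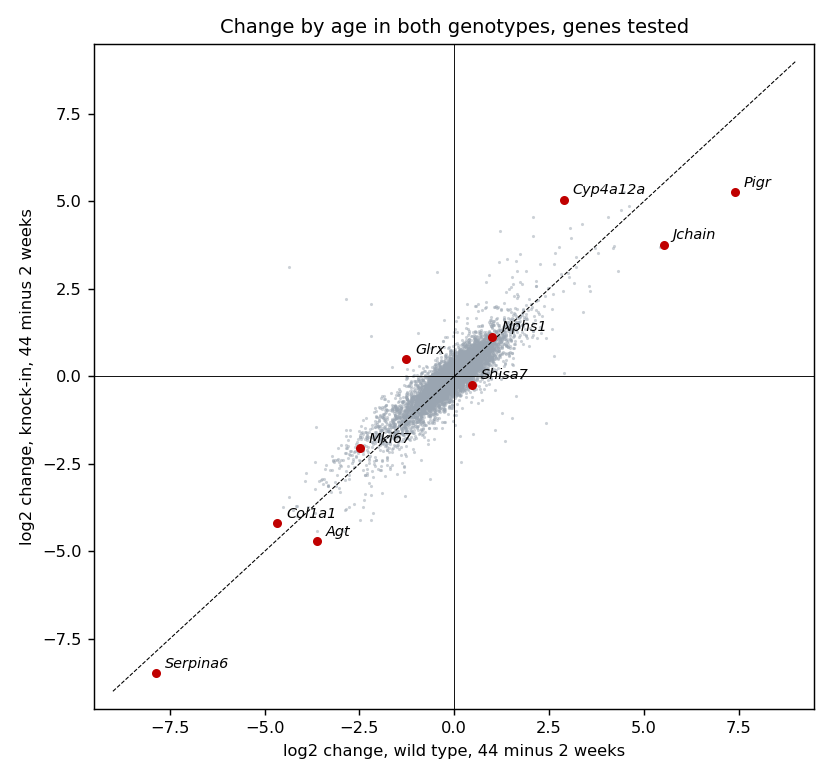
Log2 change from 2 to 44 weeks in the wild type (horizontal axis) and the knock-in (vertical axis) of 11968 genes, each a grey point; red points are named genes and the dashed line marks equal change. Most points lie along the line (Pearson r 0.88), with Pigr and Jchain below it.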

How the data were processed

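Polysomal RNA from 25 kidney samples had been amplified in 1 round, labelled with biotin and hybridized, per the labels' protocols, to a mouse Affymetrix array of perfect-match probes. The authors deposited 1 log2 value per probe set and array. Their summary and normalization are not given in those sources; array medians differ by at most 0.17. The log2 scale was read from the range of the deposited values. Of 45141 probe sets, 28898 name 1 gene, 551 several, 15588 none and 104 are controls. Arrays were named by title, and precision is limited by their number, background and detection being not analysed here.

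Group means were fitted over all arrays with limma 3.58.1 in R 4.3.3 for the 11968 genes kept, with Benjamini-Hochberg adjustment. The knock-in and wild-type changes were compared by an interaction term. Marker list means were compared by exact two-sided permutation. The rule for named genes took the 15 largest non-overlapping changes each way that passed, the 10 smallest p each way (predicted or unnamed genes skipped, among them the rise with the smallest p), members of each list by smallest p or defining role, every collagen IV and laminin chain, and for the difference the 5 smallest p each way; the text gives part of these. Members and lists were chosen with earlier results of these data known, so list counts are descriptions.

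On simulated data with these arrays' spread the comparison of ages recovered 83.3% of 2-fold and 96.8% of 4-fold changes, and 7.60% of its calls were false. In each simulation 200 genes were shifted and every gene was drawn independently from a normal distribution. Alternatives covered normalization, the filter on dim genes, the choice of probe set, the variance prior, array weights, the arrays fitted, covariates, single arrays left out and a minimum fold. Promoters came from a RefSeq table of build GRCm38.p6. All 25 arrays entered the choice of probe sets, the filter and the shared estimate of spread; the 5-week wild type entered no comparison.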

Additional observations from a re-analysis of the deposited data

Results flagged for a closer look

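Each value here stood apart from the other 3 arrays of its age in the knock-in by Dixon's ratio. That held for 29 of 384 groups of 4 arrays (7.55%), where chance marks about 1 in 20. Array 34 was the one apart in 9 of them, array 22 in 5, arrays 20 and 31 in 4 each, arrays 19, 32 and 33 in 2 each and array 21 in 1. Wild-type arrays were not screened in this way.

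Several of the cases on array 34 were sex-related measures. Y-linked genes averaged 3.32 there against 6.99 to 7.34 on the other arrays of 44 weeks, and 6.58 on array 20 against 3.39 to 3.64 on the others of 2 weeks. The male-biased kidney list averaged 7.85 on array 34 against 9.90 to 10.2. Cyp4a12a read 4.87 there against 8.85 to 9.07, Slc22a30 4.76 against 8.44 to 8.85 and Cyp2a5 9.30 against 10.13 to 10.29. The same array had the excess of 3′ over 5′ actin signal at 1.86 against 0.99 to 1.06. It also had Dach1 at 9.89 against 10.17 to 10.23, Cd74 at 9.18 against 9.92 to 10.06, and Anxa1 at 11.93 against 11.78 to 11.80.

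At 2 weeks array 22 was low for Col4a1 (11.05 against 11.48 to 11.55), Lamb1 (9.95 against 10.29 to 10.35) and Pdgfrb (8.41 against 8.98 to 8.99). It was high for H2-Eb1 (7.94 against 7.49 to 7.51) and for the endothelial gene Esm1 (6.13 against 4.83 to 4.95). Array 20 had Tcf21 at 11.68 against 11.57 to 11.58, Hspg2 at 8.58 against 9.11 to 9.19 and Zyx at 9.48 against 9.26 to 9.28. The red cell list averaged 9.34 on array 19 against 9.92 to 9.98, and Jchain read 3.59 there against 3.13 to 3.18. Lmx1b read 4.85 on array 21 against 4.46 to 4.49.

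At 44 weeks the red cell list averaged 9.53 on array 32 against 8.43 to 8.60, and Plce1 read 10.31 there against 10.66 to 10.72. Array 31 had Synpo at 12.55 against 12.32 to 12.36, Cdc42 at 10.16 against 10.36 to 10.38, Angpt2 at 5.67 against 5.32 to 5.38 and Lmx1b at 4.37 against 4.74 to 4.81. Array 33 had Myo1e at 11.26 against 10.69 to 10.73 and the long non-coding Pantr1 at 6.34 against 6.77 to 6.79.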

How the results depend on the processing

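Counts of genes passing in limma were recomputed under each alternative. Array weights gave 5848 genes for the wild type, 3176 from 2 to 5 weeks and 3478 from 5 to 44 weeks. The leukocyte and B cell covariate left 2004 genes in the knock-in, 1795 in the wild type and 1177 from 5 to 44 weeks. A minimum fold of 1.5 left 415, 564, 116 and 24 genes for the knock-in, the wild type, the first and the second step. Chosen after seeing the data, the fibroblast covariate left 992 genes in the knock-in, high-Y arrays alone 853 and low-Y arrays alone 696, the lone array being assumed to vary like the other groups. The marker covariates follow age, and the cause of these shifts was not tested. With single arrays left out the knock-in count ran from 2831 to 3329, the wild type's from 3105 to 3866, the first step's from 965 to 1463, the second's from 1239 to 1663, and the difference's from 0 to 1. That gene was Glrx, without array 33 (log2 difference 2.10 ± 0.34, adjusted p = 0.043). Of 4128 pairs of a named gene and a setting, 402 no longer passed and 22 newly passed. Another 2, of genes that had passed, changed sign and did not pass: Ptprc was -0.42 (adjusted p = 0.47) with the leukocyte covariate and Igf1r -0.062 (adjusted p = 0.96) with the fibroblast one. Ptprc is itself a member of the mean that makes the leukocyte covariate. Changes of sign in genes that passed in neither fit were not counted, such as Lama1 (0.22, and -0.46 with the tubule covariate). No paired analysis was possible because the groups share no replicate numbers.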
